A study of Homo sapiens with 4 samples.

Results

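The ERBB2 and GRB7 region of chromosome 17q12 was described from the TEAD4 peaks whose midpoint lay between 36 and 39 Mb of chromosome 17 in the human genome build hg19. Position alone chose the peaks within this window. The window itself was chosen with earlier results of these data known, including its wide SNU216 peaks. The rule took 55 of the 11540 SNU216 peaks and 102 of the 39477 MKN28 peaks, or 157 of 51017 in all. Of these, 9 SNU216 and 13 MKN28 peaks lay in the 500 kb around ERBB2, which means within 250 kb of the middle of the ERBB2 body at chr17:37844393-37884915. The remaining 2.5 Mb of the window held 46 SNU216 and 89 MKN28 peaks.

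The peaks come from TEAD4 ChIP-seq, the sequencing of DNA that an antibody against this factor pulled down from cross-linked chromatin, in SNU216 and MKN28, which the labels call gastric cancer cells. For each line there was 1 library from the TEAD4 precipitation and 1 from input DNA made without antibody, and the labels name no treatment or engineered allele in either line. SNU216 is known as a line with amplified ERBB2, and MKN28 is known as a cross-contaminated stock of another gastric cancer line. The lists give neither DNA copy number nor sequencing depth, and the part of either in the values below was not tested. With 1 library per line no difference between SNU216 and MKN28 could be tested, and the 95% intervals cover counting error only.

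ERBB2, also called HER2, is a receptor tyrosine kinase of the epidermal growth factor receptor family. It has no known ligand of its own and signals by pairing with other receptors of the family. GRB7 is an adaptor protein whose SH2 domain binds phosphorylated receptors, ERBB2 among them. The genes lie close together, are often amplified together in breast and gastric cancer, and ERBB2 is the target of the antibody trastuzumab. TEAD4 is a transcription factor that binds DNA and works with the co-activators YAP and TAZ, the effectors of the Hippo pathway. Proximal to ERBB2, the RefSeq gene order on GRCh38.p14 runs from the Mediator subunit gene MED1 and the transcription kinase gene CDK12 through NEUROD2, PPP1R1B, STARD3, TCAP, PNMT and PGAP3. Distal to it come MIEN1, GRB7, the lymphoid transcription factor gene IKZF3, ZPBP2, GSDMB and ORMDL3. No hg19 gene annotation was used here, so peaks were placed by their distance from ERBB2 and not assigned to its neighbours.

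The RefSeq promoter entry of ERBB2 is shown because neither list had a peak at the start of the gene body used here. Transcript starts further inside the body were not examined, so peaks inside the body may lie at one. The first peak inside the body began 11.5 kb past its start in both SNU216 and MKN28, and the nearest peak on the proximal side ended 86.3 kb before it in SNU216, against 171 kb in MKN28. The sequence is the RefSeq entry on GRCh38.p14, plus strand, chr17:39687844-39688143. The RefSeq gene body is 40565 bp long there, against 40523 bp for the hg19 body used for the peaks, and coordinates were not moved between builds. RefSeq's promoter table had no GRB7 entry.

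ERBB2: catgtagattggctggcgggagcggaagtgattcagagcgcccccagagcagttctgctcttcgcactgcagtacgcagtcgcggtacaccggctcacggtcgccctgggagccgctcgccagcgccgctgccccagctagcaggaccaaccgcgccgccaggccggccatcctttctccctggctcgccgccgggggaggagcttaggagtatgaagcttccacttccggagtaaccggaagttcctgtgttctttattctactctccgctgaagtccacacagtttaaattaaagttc

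Capitals would mark the TEAD element GGAATG, or CATTCC on the other strand, and this window had 0 matches. Of 35116 promoters of the same length in the table, 4928 (14.03%) had at least 1 match. The absence of these letters from the window says nothing about TEAD4 binding in the region. Only this entry was scanned for ERBB2, so promoters at other ERBB2 starts were not covered.

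Inside the ERBB2 body, the strongest SNU216 peaks of the 500 kb stood at sites that were also called in MKN28. The score is the one the authors' peak caller gave each peak. It depends on the depth of the library and of its input, so each is placed within its own list. The first site was chr17:37855932-37856375 in SNU216 with a score of 664, and chr17:37855917-37856373 in MKN28 with a score of 241. In SNU216, 97.7% of the list scored lower than this peak, against 79.7% of the list in MKN28. The second site, 6.28 kb further into the gene by its SNU216 midpoint, was chr17:37861874-37862992 in SNU216 with a score of 536, and chr17:37861977-37862451 in MKN28 with a score of 57.3. It outscored 96.4% of the SNU216 list, against 13.8% of the MKN28 list.

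Both ERBB2 sites thus ranked high among SNU216 peaks, and the second ranked near the bottom of the MKN28 list. The SNU216 score was 2.75 times the MKN28 score at the first site and 9.35 times at the second. Across all 6841 SNU216 peaks with a partner in MKN28, the median ratio was 0.565, and 96.3% and 99.8% of the pairs had a lower ratio than these 2 sites. Another SNU216 peak, chr17:37860461-37861509, lay 364 bp before the second site. It was 1049 bp wide, scored 51.4, above 2.89% of the SNU216 list, and had no MKN28 counterpart.

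**Figure D1:**
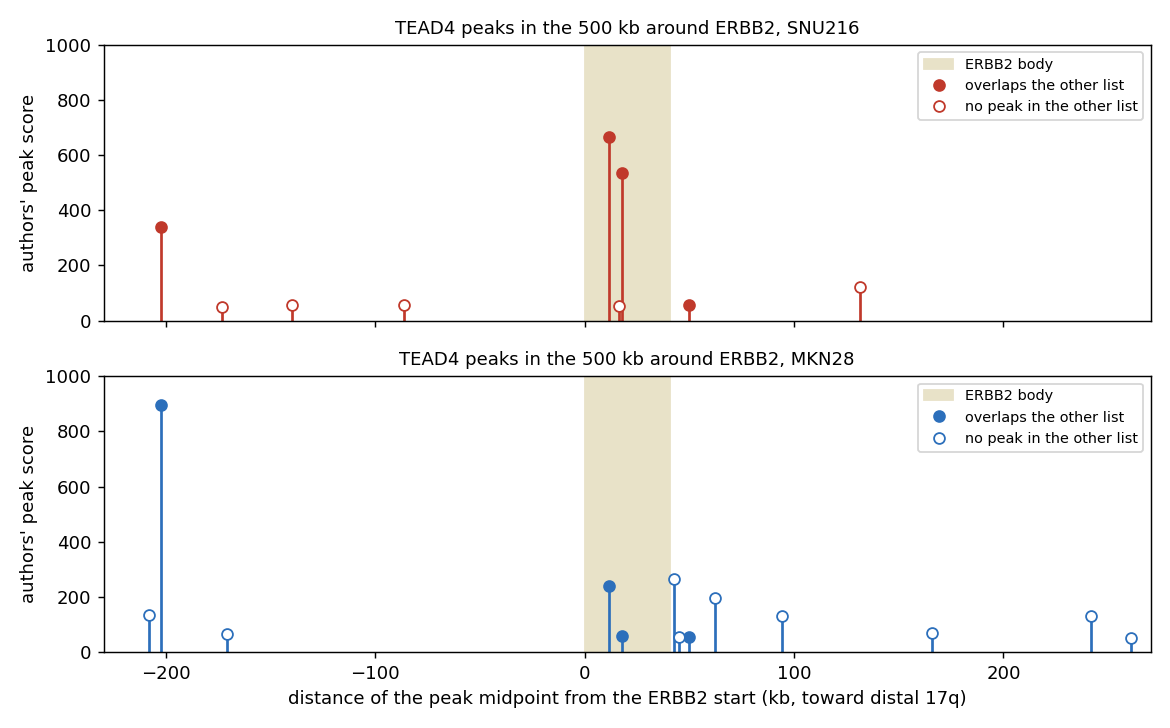
Authors' score (vertical axis) of each TEAD4 peak in the 500 kb around ERBB2 against the distance of its midpoint from the ERBB2 start in kb, with SNU216 above MKN28; the shaded band is the ERBB2 body, filled points overlap a peak of the other list and open points do not. The 2 tallest SNU216 peaks (664 and 536) stand inside the body, and the tallest MKN28 peak (894) stands 202 kb before the start.

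On the distal side of ERBB2, where GRB7 lies, the 500 kb held 2 SNU216 and 8 MKN28 peaks, and 1 site was common to both lists. SNU216 peaks were 20% of these distal peaks, close to their 22.6% of both whole lists. That site was chr17:37893898-37894358 in SNU216 with a score of 57.0, and chr17:37893946-37894376 in MKN28 with a score of 56.6. It began 8.98 kb past the end of ERBB2 in SNU216 and was weak in both lists, above 16.9% of the SNU216 list and 12.5% of the MKN28 list. The other distal SNU216 peak, chr17:37975526-37976200, had a score of 123 and no MKN28 counterpart.

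The strongest distal peak was found in MKN28 and not in SNU216. It lay at chr17:37886971-37887497, starting 2.06 kb past the end of ERBB2, with a score of 264. MKN28 peaks without an SNU216 counterpart followed at chr17:37889071-37889441 (score 56.5), chr17:37906096-37906820 (198) and chr17:37938526-37939158 (133). Further out were chr17:38010028-38010476 (68.9), chr17:38085747-38086475 (133) and chr17:38105331-38105692 (50.3). Of the 8 distal MKN28 peaks, 1 had an SNU216 counterpart, close to the 17.1% of the whole MKN28 list that had one. Lack of a peak means only that no peak passed the authors' threshold at that place, and TEAD4 may still have been bound there.

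On the proximal side of ERBB2, the 500 kb held 4 SNU216 and 3 MKN28 peaks. SNU216 peaks were 57.1% of these, against 22.6% of both whole lists. They were 60% of the peaks overlapping the body, where there were 3 SNU216 and 2 MKN28 peaks. These shares rest on few peaks. The common site was chr17:37641625-37642340 in SNU216 with a score of 339, and chr17:37641761-37642223 in MKN28 with a score of 894. This order was the reverse of that inside ERBB2, with an SNU216 over MKN28 ratio of 0.379. The remaining proximal SNU216 peaks were weak and had no MKN28 counterpart, at chr17:37671178-37671535 (score 50.7), chr17:37703310-37705645 (57.4) and chr17:37757630-37758118 (55.2). The peak at chr17:37703310-37705645 was 2336 bp wide, wider than 99.9% of the SNU216 list. The MKN28 peaks without a counterpart were chr17:37635775-37636364 (135.7) and chr17:37673422-37673771 (65.8). A counterpart was thus found for 1 of 4 SNU216 and 1 of 3 MKN28 peaks, against 59.3% and 17.1% of the whole lists.

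How dense the peaks were around ERBB2 relative to the rest of the window depended on the extent taken. SNU216 had 18.0 peaks per Mb (8.23 to 34.2) in the 500 kb around ERBB2 and 18.4 (13.5 to 24.5) in the rest of the window. MKN28 had 26.0 peaks per Mb (13.8 to 44.5) around ERBB2 and 35.6 (28.6 to 43.8) in the rest. At this extent the intervals of the 500 kb and of the rest shared values in both lines. With 500 kb taken on each side of the middle of ERBB2, SNU216 had 10 peaks per Mb (4.80 to 18.4) around ERBB2 and 22.5 (16.4 to 30.1) in the rest. MKN28 then had 20 peaks per Mb (12.2 to 30.9) around ERBB2 and 41 (32.6 to 50.9) in the rest, and its intervals no longer shared values. SNU216 peaks made up 40.9% (20.7 to 63.6) of the peaks of both lists around ERBB2 and 34.1% (26.1 to 42.7) in the rest of the window. With 500 kb on each side the order turned, to 33.3% around ERBB2 and 35.4% in the rest. The same share was 22.3% (20.5 to 24.1) on the rest of chromosome 17 and 22.6% over the whole lists. In the 3 Mb window the SNU216 share was 35.0% (27.6 to 43.0), a value within the interval of the 500 kb. This average does not show that the higher share was spread evenly over the window. There were 26 SNU216 and 42 MKN28 peaks from 36 to 37 Mb, and 18 and 30 from 37 to 38 Mb. SNU216 peaks were relatively fewer from 38 to 39 Mb (11 and 30). A SNU216 share above that of the whole lists was not confined to the window. Just distal, there were 26 SNU216 and 51 MKN28 peaks from 39 to 40 Mb, and 15 and 27 from 40 to 41 Mb. SNU216 peaks were relatively fewer from 35 to 36 Mb (3 and 12) and from 41 to 42 Mb (8 and 41).

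Over all peaks, the median SNU216 score was lower around ERBB2 than in the rest of the window, at 57.4 (51.4 to 536) for 9 peaks and 106 (75.4 to 139) for 46 peaks. The medians in MKN28 were close, at 133 (56.6 to 241) for 13 peaks around ERBB2 and 139 (94.2 to 160) for 89 peaks in the rest. The intervals shared values in each line. The SNU216 scores around ERBB2 ran from 50.7 to 664 with 5 of the 9 under 100, so the 500 kb held a few strong peaks beside several at the threshold. Among peaks scoring 100 or more the order turned, with an SNU216 median of 437 for 4 peaks around ERBB2 and 170 for 26 peaks in the rest. The MKN28 medians were then 198 for 7 peaks around ERBB2 and 189 for 54 in the rest. Scores of 100 or more were found for 4 of 9 SNU216 peaks around ERBB2 and for 26 of 46 in the rest, against 42.2% of the whole SNU216 list. In MKN28 they were found for 7 of 13 peaks around ERBB2 and for 54 of 89 in the rest, against 49.9% of the whole list.

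**Figure D2:**
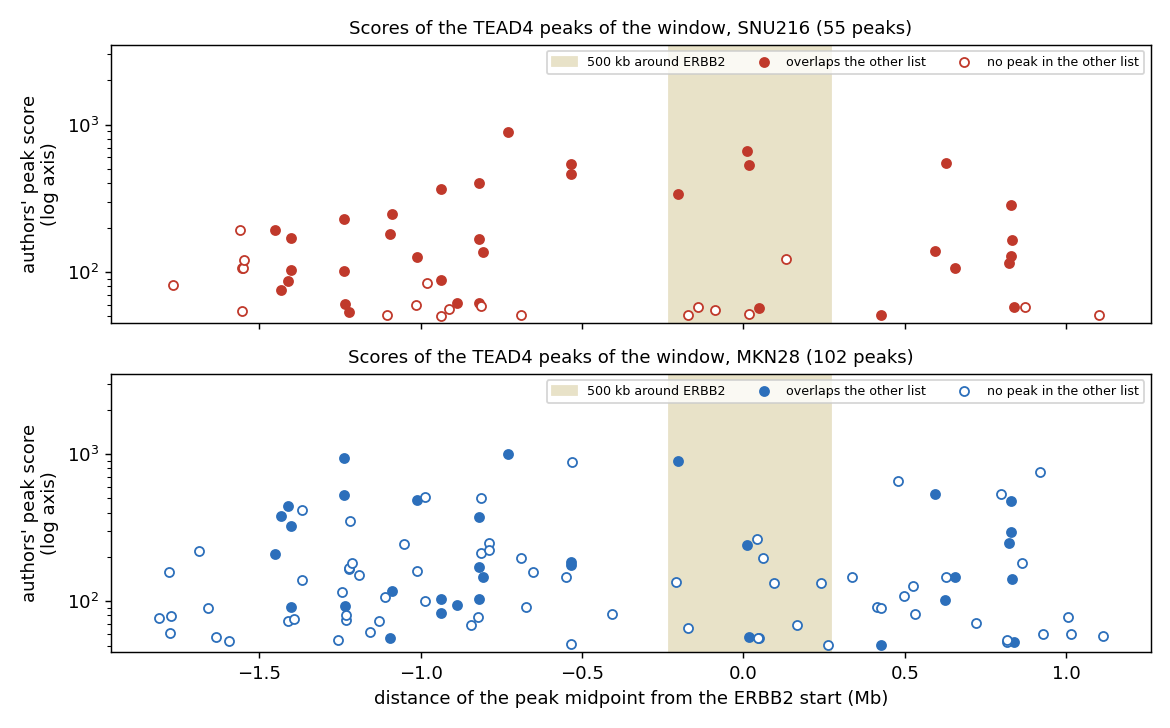
Authors' score (log axis) of every TEAD4 peak of the 3 Mb window against the distance of its midpoint from the ERBB2 start in Mb, with SNU216 (55 peaks) above MKN28 (102 peaks); the 500 kb around ERBB2 is shaded, and filled points overlap a peak of the other list. The strongest peak of both lists in the window (899 in SNU216, 997 in MKN28) is the same site, 0.729 Mb before the ERBB2 start.

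SNU216 peaks of the window were wide for their score, around ERBB2 and outside it, while MKN28 peaks were not. The window was chosen with these wide peaks already known, so their width only describes it. Because width rises with score in such lists, the width of a peak was set against the median of peaks with similar scores in its own list, which was divided into 50 groups by score rank. A ratio of 1 means a peak as wide as others of like score. The median of this ratio was 1.47 (1.07 to 3.15) for the 9 SNU216 peaks around ERBB2 and 1.32 (1.04 to 1.5) for the 46 in the rest of the window. In MKN28 it was 0.984 (0.774 to 1.14) for the 13 peaks around ERBB2 and 0.976 (0.919 to 1.03) for the 89 in the rest. A ratio of at least 1.5 was reached by 4 of 9 SNU216 peaks around ERBB2 and 16 of 46 in the rest, against 5.97% of the whole SNU216 list. It was reached by 0 of 13 MKN28 peaks around ERBB2 and 3 of 89 in the rest, against 6.23% of the whole MKN28 list.

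The wide SNU216 peaks fell into separate places rather than one block. The peak widest for its score was the one at chr17:37703310-37705645, 139.9 kb before the ERBB2 start, at 6.91 times the width of peaks of like score. Within ERBB2, the ratio was 3.15 for the weak peak at chr17:37860461-37861509 and 1.76 for the second strong site. The first strong site of ERBB2, at 444 bp, was narrow for its score with a ratio of 0.697. The peak at chr17:37757630-37758118 had a ratio of 1.56, and the other 4 SNU216 peaks around ERBB2 ran from 1.07 to 1.47.

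A run of 5 neighbouring SNU216 peaks at the proximal end of the window, from 36283654 to 36297107, carried part of the width in the rest of the window. Their widths ran from 1094 to 2676 bp, their ratios from 3.14 to 5.44 and their scores from 54.3 to 194, and 0 of the 5 overlapped an MKN28 peak. Without them, the median ratio of the remaining 41 SNU216 peaks outside the 500 kb was 1.16 (1.04 to 1.43), and 11 of the 41 (26.8%) were at least 1.5 times as wide as peaks of like score. The remaining peak among the 5 widest for their score was chr17:38716444-38718042 on the distal side, at 4.73 times with a score of 57.4. In MKN28 the 5 widest for their score had ratios of 1.33 to 1.61, the first at chr17:37057033-37058038.

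**Figure D3:**
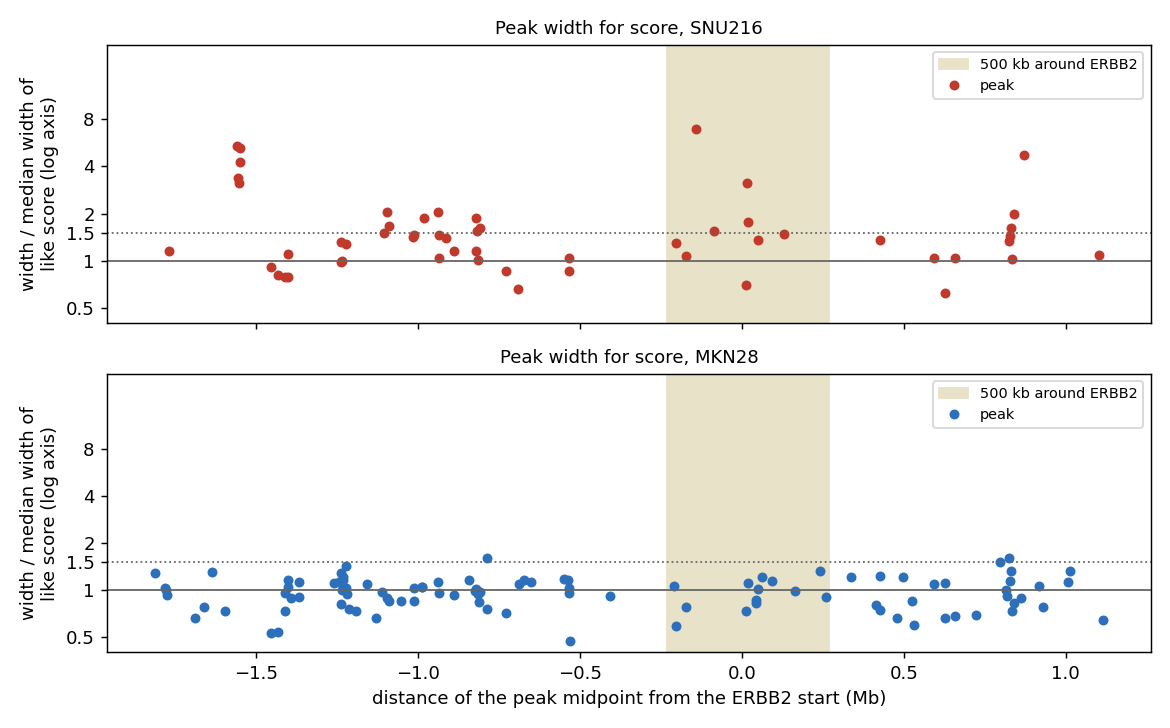
Width of each TEAD4 peak of the window as a ratio to the median of similarly scored peaks of its list (log axis) against the distance of its midpoint from the ERBB2 start in Mb, with SNU216 above MKN28; the solid line marks 1, the dotted line 1.5, and the 500 kb around ERBB2 is shaded. SNU216 peaks reach 6.91 and have 20 points at or above the dotted line, and MKN28 peaks reach 1.61 with 3 such points.

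A smaller share of SNU216 peaks had a partner in MKN28 around ERBB2 than in the rest of the window, within intervals that shared values. An overlap of at least 1 bp with MKN28 was found for 4 of 9 SNU216 peaks around ERBB2 (44.4%, 13.7 to 78.8), and in the rest of the window for 31 of 46 (67.4%, 52.0 to 80.5), against 59.3% of the whole SNU216 list. In the other direction, 4 of 13 MKN28 peaks around ERBB2 (30.8%, 9.09 to 61.4) overlapped an SNU216 peak, and 31 of 89 did in the rest (34.8%, 25.04 to 45.7), against 17.1% of the whole MKN28 list. With MKN28 limited to its strongest peaks at the length of the SNU216 list, 2 of 9 SNU216 peaks (22.2%) and 2 of 4 MKN28 peaks (50%) around ERBB2 overlapped the other list. The whole-list shares under this limit were not computed, and 59.3% and 17.1% belong to the full lists. SNU216 peaks were also a larger share of the peaks in the window than in the whole lists, as given above, and the part of this in the MKN28 overlap was not tested. The 5 SNU216 peaks around ERBB2 without a partner scored from 50.7 to 123, and the 4 with one scored from 57.0 to 664.

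Partner peaks of the window had higher SNU216 scores relative to MKN28 than partner peaks of the whole lists. The SNU216 score was above the MKN28 score in 3 of 4 pairs around ERBB2 and in 12 of 31 pairs in the rest of the window, against 24.7% of all 6841 pairs. The median SNU216 over MKN28 score ratio was 1.88 around ERBB2, where 4 pairs ran from 0.379 to 9.35, and 0.902 (quartiles 0.378 and 1.11) in the rest of the window. These ratios describe 2 libraries of unknown depth.

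Partner widths showed a like pattern. The SNU216 peak was the wider one in 3 of 4 pairs around ERBB2 and in 13 of 31 in the rest of the window, against 17.5% of all pairs. The median SNU216 over MKN28 width ratio was 1.31 around ERBB2, 0.977 in the rest of the window, 0.710 on the rest of chromosome 17 and 0.726 over all pairs. At the second ERBB2 site the SNU216 peak was 1119 bp wide and the MKN28 peak 475 bp, a ratio of 2.36 that exceeded 99.9% of all pairs. At the first ERBB2 site the widths were close, at 444 bp in SNU216 and 457 bp in MKN28. The weak distal site was 461 bp wide in SNU216 and 431 bp in MKN28, and the common proximal site was 716 bp wide in SNU216 and 463 bp in MKN28. The 2 ERBB2 sites therefore differed from each other in width, although SNU216 scored higher at both.

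**Figure D4:**
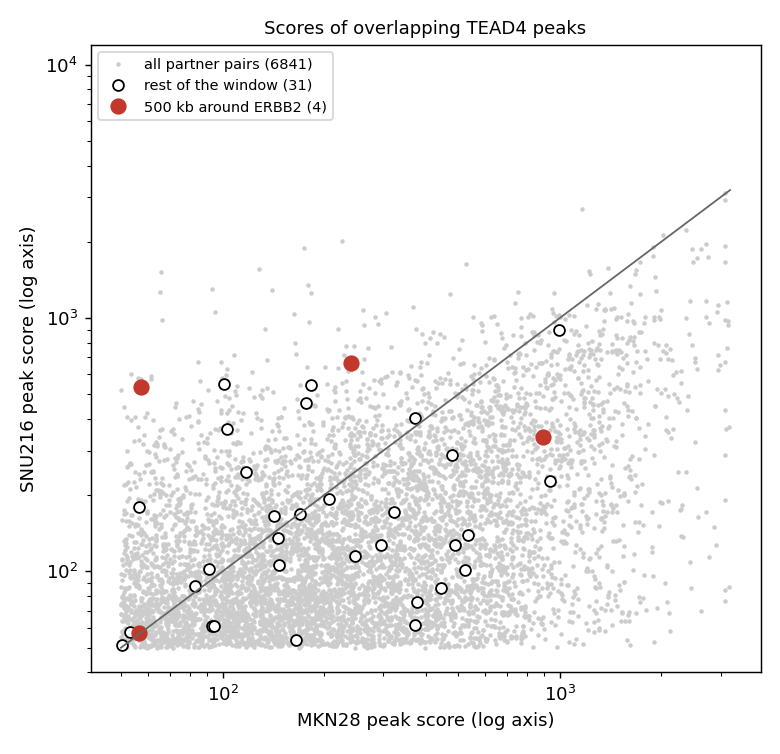
SNU216 score against MKN28 score of overlapping TEAD4 peaks, both on log axes; grey points are all 6841 pairs, open circles the 31 pairs in the rest of the window, red points the 4 pairs around ERBB2, and the line marks equal scores. The ERBB2 sites lie above the line (664 against 241, and 536 against 57.3), the weak distal site lies on it, and the proximal site (339 against 894) lies below it.

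In the rest of the window, the strongest site of each list was the same one. It lay at chr17:37115049-37115626 in SNU216 with a score of 899, and at chr17:37115079-37115641 in MKN28 with a score of 997, 729 kb before the ERBB2 start. The next SNU216 peaks were chr17:38470883-38471280 (score 548), chr17:37310411-37310960 (544), chr17:37309754-37310355 (462) and chr17:37024320-37025003 (404). Each of these 5 SNU216 peaks had a partner in MKN28, and the partner at chr17:38470883-38471280 scored 101, a ratio of 5.41. The next MKN28 peaks were chr17:36606918-36607931 (score 933), chr17:37312797-37313169 (886), chr17:38762654-38763480 (756) and chr17:38324553-38325045 (659). Of these 4 MKN28 peaks, the one with a score of 933 had an SNU216 partner, with a score of 228. Among these strongest peaks of the rest of the window, the 3 without a counterpart were MKN28 peaks. Over the whole lists, 59.3% of SNU216 peaks and 17.1% of MKN28 peaks had a partner. The MKN28 list is 3.42 times as long as the SNU216 list.

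The wide SNU216 peaks extended over each Mb of the window and were less marked in the next Mb on the distal side. The median width ratio of SNU216 peaks was 1.41 from 36 to 37 Mb (26 peaks), 1.33 from 37 to 38 Mb (18 peaks) and 1.33 from 38 to 39 Mb (11 peaks). The run of 5 wide peaks described above lay in the bin from 36 to 37 Mb. Outside the window, the median was 1.06 from 39 to 40 Mb (26 peaks), where 4 peaks had a ratio of at least 1.5. It was 1.02 from 40 to 41 Mb (15 peaks) and 1.19 from 41 to 42 Mb (8 peaks). From 35 to 36 Mb there were 3 SNU216 peaks, too few for a reliable median. In MKN28 the medians over the same 3 Mb of the window were 0.963, 0.992 and 0.951, on 42, 30 and 30 peaks.

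**Figure D5:**
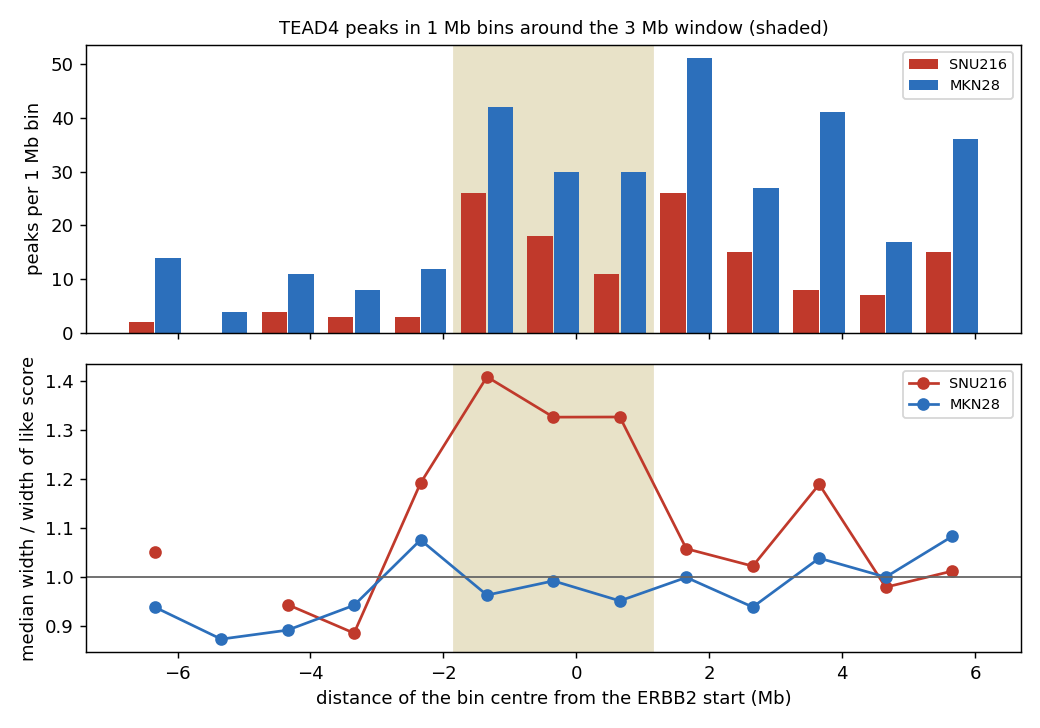
Number of TEAD4 peaks (top) and median width relative to peaks of like score (bottom) in 1 Mb bins, against the distance of the bin centre from the ERBB2 start in Mb, for SNU216 and MKN28; the 3 Mb window is shaded. The SNU216 medians in the shaded bins lie between 1.33 and 1.41 and the MKN28 medians between 0.951 and 0.992.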

How the data were processed

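ChIP-seq reads were processed with CASAVA 1.8, Bowtie2 2.0.0 and MACS on hg19, per the submitters' processing notes; no source used here gives the MACS version or settings. The authors deposited a list of peaks for each TEAD4 library, with that line's input as the control per the names of the lists. The score deposited by the authors for each peak was made by MACS, per the peak names in the lists and the submitters' processing notes. The scale of this score is not stated, and the depth is unknown. Positions were converted to 1-based coordinates. Overlap meant at least 1 shared bp, and the best-scoring overlapping peak was the partner. Shares carry exact Clopper-Pearson intervals, peak densities exact Poisson intervals, and medians exact order-statistic intervals, all at 95%. No p-value was computed, since each line has 1 TEAD4 library. The window, the measures and the lists were chosen with earlier results of these data known, including the wide SNU216 peaks of this window. The peaks named were all those in the 500 kb, and in each list the 5 highest scores in the rest and the 5 widest for their score in the window. Peaks of the other genes planned were not analysed here for lack of an hg19 annotation. The code was tested on simulated data. Python 3.11.15, numpy 2.4.6, pandas 2.3.3, scipy 1.17.1 and matplotlib 3.10.9 were used.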

Additional observations from a re-analysis of the deposited data

How the results depend on the processing

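Of 79 values recomputed for the 500 kb around ERBB2 and the rest of the window, 68 stayed within the interval of the main value and 11 did not; 44 width ratios of single peaks around ERBB2 kept their side of 1.5 and moved by less than 1.5 times. When peaks scoring under 100 were left out, SNU216 had 8 peaks per Mb around ERBB2 and 10.4 in the rest of the window, and MKN28 had 21.6 in the rest. The median score was then 437 around ERBB2 and 170 in the rest in SNU216, the reverse of the order over all peaks, and 198 around ERBB2 and 189 in the rest in MKN28. Removing weak peaks lowers densities and raises medians by construction, but it does not fix which part has the higher median. The SNU216 median of 437 rests on 4 peaks and stayed within its main interval of 51.4 to 536. With the MKN28 list limited to as many of its strongest peaks as SNU216 has, MKN28 had 8 peaks per Mb around ERBB2 and 12.4 in the rest. SNU216 peaks were then 69.2% (38.6 to 90.9) of both lists around ERBB2 and 59.7% (47.9 to 70.8) in the rest. The share of both whole lists was 50%, fixed by their equal length, and both intervals include it. The other list was then overlapped by 22.2% of SNU216 peaks around ERBB2 and 34.8% in the rest, and by 50% of MKN28 peaks around ERBB2 and 48.4% in the rest. The shorter MKN28 list gives these moves by construction, except the shares of MKN28 peaks that overlapped, whose cause was not tested. Overlap shares of the whole lists under this limit were not computed. Leaving out the run of 5 wide SNU216 peaks was chosen after seeing the data and kept the median width ratio in the rest, at 1.16, within its interval. With 500 kb on each side of ERBB2 each value stayed within its main interval, but comparisons changed. SNU216 had 10 peaks per Mb around ERBB2 and 22.5 in the rest. MKN28 had 20 (12.2 to 30.9) and 41 (32.6 to 50.9), intervals that were apart, and the SNU216 share was 33.3% around ERBB2 and 35.4% in the rest. With 250 kb beyond each end of the body the same peaks were taken, so only the densities could change, and they stayed within their intervals. The unchanged values of this setting are among the 68 and are no check. With the other overlap rules and groupings by score, each value stayed within its interval. No paired analysis was possible because each line has a single TEAD4 library, and for the same reason no replicate could be left out. Because depth is unknown, a peak missing from a list cannot be told apart from one too shallow to call.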

Other observations

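Among 5312 windows of 500 kb that held at least 1 peak of either list, laid in step with the 500 kb around ERBB2, the ERBB2 window had more SNU216 peaks than 96.6% of the windows and more MKN28 peaks than 80.6%. The median window held 1 SNU216 and 6 MKN28 peaks, and the fullest held 29 SNU216 and 42 MKN28 peaks.

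The longest stretches of the 3 Mb without an SNU216 peak lay on either side of ERBB2. The first, of 331 kb, ran from 37310961 to 37641624 and held 3 MKN28 peaks. The second, of 295 kb, ran from 37976201 to 38270787 and held 6 MKN28 peaks. In MKN28 the longest such stretch was 199 kb, from 37436312 to 37635774, with 0 SNU216 peaks inside. The next MKN28 stretch, of 182 kb, ran from 37673772 to 37855916 up to the first ERBB2 site and held 2 SNU216 peaks, both wide for their score.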
